A study of Mus musculus with 8 samples.

Results

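The genes described here encode the subunits of the hypoxia-inducible factors (HIFs) and the enzymes that sense oxygen and control them. There are 10 of them among 21427 gene symbols in the table: the alpha subunits Hif1a, Epas1 and Hif3a, the beta subunits Arnt and Arnt2, the prolyl hydroxylases Egln1, Egln2 and Egln3, the asparaginyl hydroxylase Hif1an and the ubiquitin ligase subunit Vhl. They were chosen by their place in this pathway, and the set was proposed because the Epas1 level was already known to differ between the genotypes in these libraries. For each symbol the RefSeq record with the highest mean count was used. The difference between the genotypes is therefore given for members as values with their errors and without a p-value, and members that passed a threshold there are only counted beside the share of all records that did.

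RNA was sequenced from 8 mouse induced pluripotent stem cell (iPSC) clones, each grown from embryonic fibroblasts (MEFs) of mixed background that carried an Oct4-GFP reporter and were reprogrammed with retroviruses for Oct4, Sox2, Klf4 and c-Myc. The 4 TKO clones (35, 37, 47 and 48) came from Miwi-/-, Mili-/-, Miwi2-/- MEFs, and the 4 Ctrl clones (33, 34, 41 and 43) from MEFs labelled control, which the methods describe as triple heterozygous littermates and the introduction as carrying wild type alleles. All were cultured with LIF and serum and used at under 10 passages, each library is 1 clone, and no oxygen treatment is given in the labels. Picked colonies were moved onto inactivated MEF feeders, and whether feeder cells were removed before RNA isolation is not stated. Clones 33, 34, 35 and 37 are called the thirties series and clones 41, 43, 47 and 48 the forties series, 2 clones of each genotype in either, and what a clone number marks is not explained in the labels. The embryo behind each clone is not labelled either, so the errors and p-values below measure the spread between these clones.

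HIF is a dimer of an oxygen-regulated alpha subunit and a stable beta subunit, which binds DNA at the core letters ACGTG or GCGTG. With oxygen present, prolyl hydroxylases modify the alpha subunit, Vhl recognises the modified protein and the proteasome degrades it, while Hif1an blocks the binding of its coactivators. This control acts on protein, which RNA counts do not measure. HIF-1alpha is known for inducing glycolytic genes, and HIF-2alpha, the product of Epas1, is known for its roles in endothelial cells, in iron handling and in erythropoietin synthesis.

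Total counts were 8983203 to 24688324 per Ctrl library and 24593995 to 52457455 per TKO library, and counts were divided by median-ratio size factors, giving normalized counts. The filter of at least 5 reads in at least 4 of 8 libraries left 16235 of 27052 records, 9 of the 10 members among them. Of the targeted genes, Miwi (Piwil1) had 8.13 to 28.8 normalized counts in Ctrl and 2.41 to 4.53 in TKO clones, and Mili (Piwil2) had 758 to 1028 and 3845 to 10084. Miwi2 (Piwil4) matched no record through the symbol source used here and is not analysed. The paper does report counts for it from these libraries, higher in TKO iPSCs. The Mili allele lacks a few exons, so counts over its whole record, which include reads from outside the deletion, do not check it. The summed level of 20 pluripotency genes, in counts per kb of record, was 132156 to 192542 in Ctrl and 171414 to 190829 in TKO clones, and none of these genes was at 0 in all libraries.

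Egln1 and Egln3 are themselves known HIF targets, and their promoters are shown with that of Hif1a. These 3 were picked with the levels known, and Egln3 overlapped between the genotypes. Arnt2 also had a mean difference (log2 fold change -0.66), but its window, which holds neither motif, is not shown. No link between a motif and a genotype difference is therefore read from these windows. The sequences are the 250 bases before the RefSeq start site (GRCm38.p6), printed 5′ to 3′ on the gene's strand, with capitals where a HIF core motif stands on either strand. Egln1 lies at chr8:124949255-124949504 on the minus strand, Egln3 at chr12:54203875-54204124 on the minus strand and Hif1a at chr12:73907617-73907866 on the plus strand.
Egln1: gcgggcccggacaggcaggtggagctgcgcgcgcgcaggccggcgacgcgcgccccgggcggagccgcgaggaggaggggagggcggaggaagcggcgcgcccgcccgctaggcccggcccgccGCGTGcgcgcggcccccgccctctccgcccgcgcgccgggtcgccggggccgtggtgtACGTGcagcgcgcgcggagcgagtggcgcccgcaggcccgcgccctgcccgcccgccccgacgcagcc
Egln3: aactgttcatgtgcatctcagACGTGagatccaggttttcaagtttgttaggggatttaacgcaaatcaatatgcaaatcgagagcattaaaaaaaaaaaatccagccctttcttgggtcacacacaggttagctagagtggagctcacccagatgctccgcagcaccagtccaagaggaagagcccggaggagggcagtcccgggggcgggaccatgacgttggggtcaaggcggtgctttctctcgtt
Hif1a: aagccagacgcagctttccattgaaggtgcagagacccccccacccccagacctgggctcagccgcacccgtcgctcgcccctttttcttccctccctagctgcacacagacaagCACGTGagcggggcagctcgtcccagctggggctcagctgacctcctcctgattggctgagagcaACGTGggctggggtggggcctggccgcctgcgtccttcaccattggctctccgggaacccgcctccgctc

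The Egln1 window holds 1 ACGTG and 1 GCGTG, and its GC content was 86.0%. In the Egln3 window stands 1 ACGTG, and its GC content was 50.8%. The Hif1a window has 3 ACGTG matches, counting CACGTG once on each strand. Windows were found for 9 members, and none was found for Epas1. Of these, 4 have ACGTG on either strand and 6 have ACGTG or GCGTG, while Arnt2, Hif1an and Vhl have neither. Among all 32851 windows of this length, 16.6% hold ACGTG, 28.2% hold GCGTG and 38.6% hold either. A match is a description of the letters and not a measured binding site.

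Epas1 had the lower level in every TKO clone, and its difference was the largest in size among the 9 members tested. The record (NM_010137) has 5352 bases, and in mm9 the gene lies on chromosome 17 from 87153247 to 87232750. Normalized counts in Ctrl clones 33, 34, 41 and 43 were 970, 1067, 865 and 1077. Those in TKO clones 35, 37, 47 and 48 were 314, 320, 476 and 297. The highest TKO clone, 47, stood well under the lowest Ctrl clone, 41. The means were 995 ± 99.0 and 352 ± 83.4 (SD, n = 4 clones each), a 2.83-fold lower level in TKO iPSCs, with a log2 fold change of -1.50 (SE 0.17, 95% interval -1.89 to -1.11). Of 16235 records, 114 had a lower fitted log2 fold change. In bulk RNA, fewer cells of a type and less RNA per cell cannot be told apart. The summed level of 17 endothelial markers, described further on, was also lower in every TKO clone. Of the 16 tested singly, 10 had a log2 fold change above 0 and 6 below. The 2 that passed, Mmrn2 and Thbd, are in the study's own gene table. The separation of the sum rests on these 2 genes. The part of endothelial cells or of feeder fibroblasts in the Epas1 level was not tested.

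Hif1a, the broadly expressed alpha subunit, was also lower in every TKO clone, by a smaller amount. Its record (NM_010431, chromosome 12) had 5355, 5866, 6088 and 6239 normalized counts in Ctrl clones 33, 34, 41 and 43. In TKO clones 35, 37, 47 and 48 it had 3776, 3944, 3973 and 4719. No TKO clone reached the lowest Ctrl clone, and the log2 fold change was -0.52 (SE 0.098, 95% interval -0.74 to -0.30). An antisense noncoding gene, Gm15283, overlaps Hif1a in the mm9 annotation, and the counting rule for strand is not given in the sources used here. The third alpha subunit gene, Hif3a, has 2 records with 2 reads each over all libraries. It was not tested, and because its records may share reads, its low count is uncertain.

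Per kb of record, Hif1a exceeded Epas1 in every clone of both genotypes. Epas1 made up 13.9, 14.0, 11.3 and 13.3% of the summed Hif1a and Epas1 level in Ctrl clones 33, 34, 41 and 43. Its share was 6.91, 6.74, 9.65 and 5.31% in TKO clones 35, 37, 47 and 48. These ranges did not overlap, and the means were 13.1 ± 1.27% and 7.15 ± 1.81% (SD, n = 4). The summed alpha level itself was 1419 ± 85.3 counts per kb in Ctrl and 925 ± 84.4 in TKO iPSCs. Both the sum and the part taken by Epas1 were thus lower in the TKO clones.

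**Figure D1:**
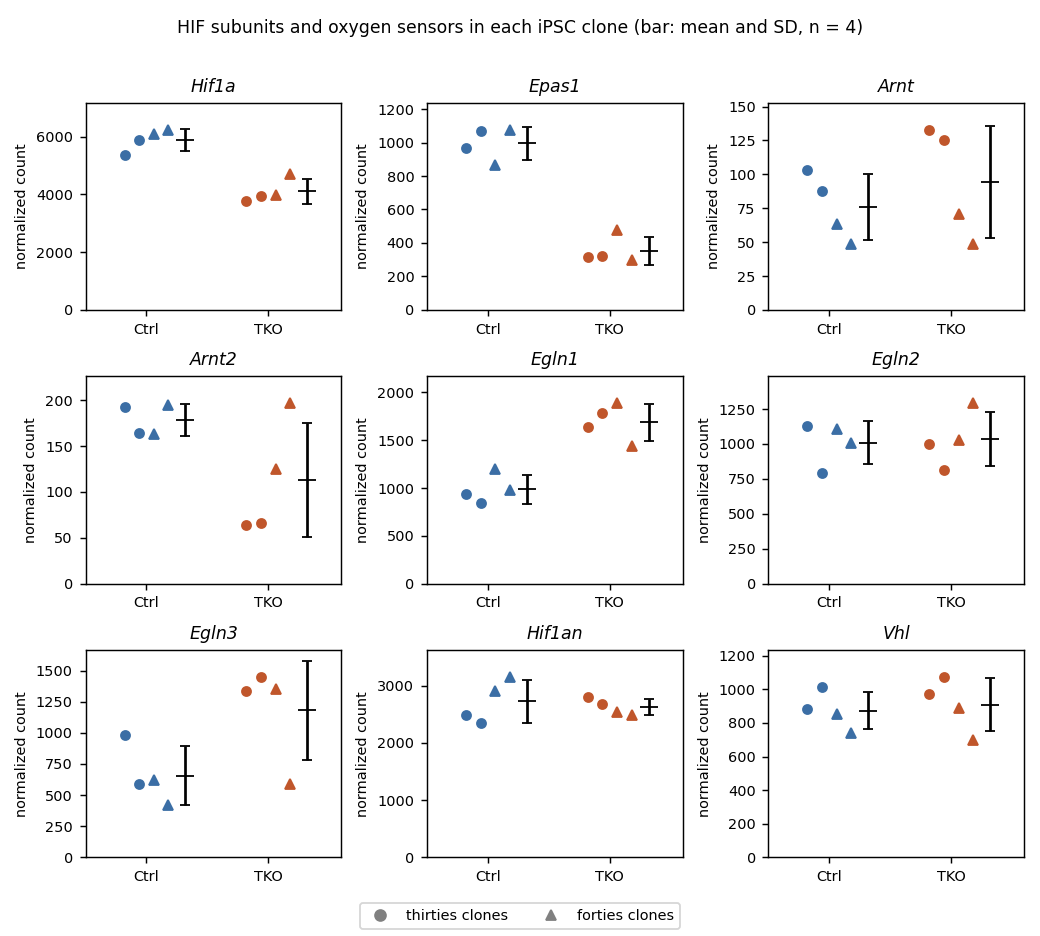
Normalized counts (y axis, starting at 0) of the 9 members tested in each Ctrl (blue) and TKO (orange) clone, with circles for the thirties, triangles for the forties and black bars for mean ± SD (n = 4). Epas1 and Hif1a in TKO clones lie under all Ctrl clones, Egln1 lies above them, and Egln3 overlaps through TKO clone 48.

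The beta subunits had low counts. Arnt, the common partner of the alpha subunits, had 103, 87.8, 63.4 and 48.9 normalized counts in Ctrl clones 33, 34, 41 and 43. It had 133, 125, 71.1 and 48.7 in TKO clones 35, 37, 47 and 48. The genotypes overlapped, and the log2 fold change of 0.35 had a 95% interval from -0.46 to 1.16. Arnt has a further record that differs in length by 45 bases and took 65 reads in all against 831. How reads that fit several records were assigned is not stated: records of symbols with several records had a median of 4.18 counts per kb over all libraries, against 348 for symbols with 1 record. The Arnt level is therefore uncertain, also beside that of other genes.

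Arnt2, a beta subunit best known from neural tissue, differed between genotypes in the thirties clones. Ctrl clones 33, 34, 41 and 43 had 192, 164, 163 and 195 normalized counts. TKO clones 35 and 37 had 63.9 and 66.6, whereas TKO clones 47 and 48 had 125 and 197. The forties TKO clones thus reached into or near the Ctrl range, and the log2 fold change over all clones was -0.66 (95% interval -1.44 to 0.11).

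The prolyl hydroxylases differed among themselves. Egln1, the main oxygen sensor of most cells, had 937, 842, 1197 and 977 normalized counts in Ctrl clones 33, 34, 41 and 43. Its counts in TKO clones 35, 37, 47 and 48 were 1635, 1789, 1886 and 1441. Every TKO clone was above the highest Ctrl clone, with a log2 fold change of 0.77 (SE 0.14, 95% interval 0.47 to 1.07), or 1.71-fold. Egln3, a hydroxylase strongly induced by hypoxia in many cells, had 983, 590, 624 and 420 normalized counts in the Ctrl clones in that order. It had 1334, 1448, 1353 and 590 in the TKO clones. TKO clone 48 lay within the Ctrl range and the other 3 above it, and the log2 fold change was 0.86 (SE 0.31, 95% interval 0.16 to 1.56). Egln2, which is not known as a hypoxia-induced gene, had 791 to 1130 normalized counts in Ctrl and 817 to 1291 in TKO clones. Its log2 fold change was 0.04, with an interval from -0.33 to 0.40, and the end of the gene overlaps Cyp2t4 in the annotation.

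In counts per kb, the 3 prolyl hydroxylases summed to 998.5 ± 155 in the Ctrl clones and to 1405 ± 121 in the TKO clones (SD, n = 4). Egln2 made up the largest part in Ctrl, 47.6 ± 3.34%, and 35.2 ± 9.68% in TKO clones. Egln1 took 28.3 ± 3.76% in Ctrl and 34.0 ± 1.51% in TKO, and Egln3 took 24.04 ± 6.19% and 30.7 ± 8.88%. TKO clone 48 had 49.2% Egln2 and 17.7% Egln3, close to Ctrl clone 43 with 52.3% and 17.2%. The ratio of Egln1 to Epas1 per kb was 1.54 ± 0.393 in Ctrl and 7.45 ± 1.06 in TKO iPSCs, and its ranges did not overlap. That separation had to follow, because in TKO clones Egln1 lay above and Epas1 under all Ctrl clones.

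**Figure D2:**
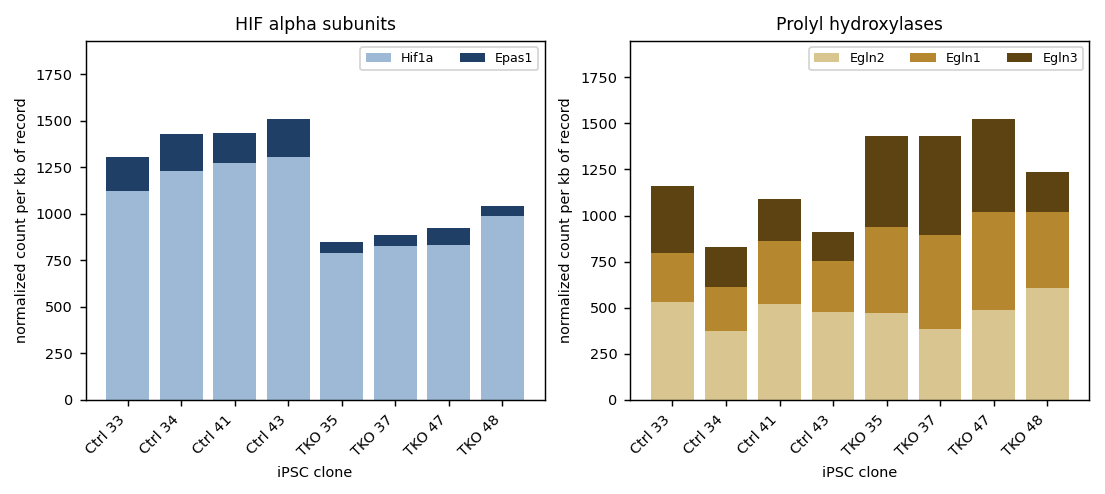
Stacked normalized counts per kb of record (y axis) in each clone (x axis), for the alpha subunits on the left and the prolyl hydroxylases on the right. The alpha sum lies between 1303 and 1508 in Ctrl and between 849 and 1044 in TKO clones, and the Egln sum between 830 and 1163 and between 1236 and 1523.

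Hif1an and Vhl, which act on the alpha subunits after synthesis, had ranges that overlapped between the genotypes. Hif1an, the enzyme that hydroxylates the transactivation domain, had 2353 to 3148 normalized counts in Ctrl and 2489 to 2795 in TKO clones. Its log2 fold change was -0.05 (95% interval -0.30 to 0.19). Vhl had 742 to 1012 and 701 to 1073, with a log2 fold change of 0.06 (95% interval -0.29 to 0.41).

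Set against each other within a clone, Epas1 was lower relative to all 8 other tested members in the TKO clones. The log2 difference between Epas1 and each member, with the Ctrl mean of each gene as reference, did not overlap between genotypes for any of the 8. Relative to Egln1 it was -0.48 to 0.33 in Ctrl and -2.5 to -2.002 in TKO clones. Relative to Hif1a it was -0.25 to 0.11 and -1.42 to -0.49. The closest case was Arnt2, with -0.14 to 0.22 and -1.88 to -0.18. Because Epas1 itself does not overlap, these ranges follow in part from the way the set was proposed.

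Hif1a had the highest level per kb of the 9 members tested in each of the 8 clones. Epas1 was the seventh in 7 clones and the sixth in Ctrl clone 43. In Ctrl iPSCs the levels between them were 475 ± 72.8 counts per kb for Egln2, 440 ± 59.5 for Hif1an, 320 ± 40.7 for Vhl, 281 ± 42.6 for Egln1 and 243 ± 87.9 for Egln3 (SD, n = 4). Neighbours in this order overlapped over the clones, except that the lowest Hif1an level (380) was above the highest Vhl level (371). In TKO iPSCs Egln1 (479 ± 55.2) and Egln3 (439 ± 148) stood beside Egln2 (487 ± 92.0) and Hif1an (424 ± 22.1), and Vhl followed at 333 ± 57.96. Epas1 overlapped Egln3 in the Ctrl clones (162 to 201 and 156 to 365) and stood under every hydroxylase in the TKO clones, at 55.4 to 88.9.

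Across all records, 0.240% passed an adjusted p of 0.05 in TKO against Ctrl (edgeR's quasi-likelihood test, Benjamini-Hochberg adjustment), and of the 9 members 1 did, Epas1. In the fit with clone series as a term 5.70% of records passed, and 3 members did, Hif1a and Epas1 lower and Egln1 higher. Separate ranges of the 4 Ctrl and 4 TKO clones were found in 8.33% of records and in 3 of 9 members (33.3%), the same 3 genes. Nothing is read from these counts, because the genotype difference was known when the set was proposed.

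Split by series, Epas1 had a log2 fold change of -1.69 (SE 0.22) between the thirties clones and -1.33 (SE 0.21) between the forties clones. For Hif1a these were -0.54 and -0.50, for Egln1 0.95 and 0.61, and for Egln3 0.84 and 0.89. These are the same 8 clones, so the split is no independent support for the direction. Arnt2 had -1.44 in the thirties and -0.15 in the forties, and Hif1an had 0.18 and -0.27. In a test of the difference between the series, 1.30% of all records passed and no member did. Arnt2 came nearest (1.29, SE 0.35, adjusted p = 0.104), followed by Hif1an (-0.44, adjusted p = 0.127). Without adjustment 2 members had a p under 0.05 (edgeR), as did 3037 of all 16235 records. DESeq2 called 1 member and limma-voom 0, and their shares over all records are not given here. For Epas1 the difference between series was 0.35 (SE 0.30, adjusted p = 0.571).

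**Figure D3:**
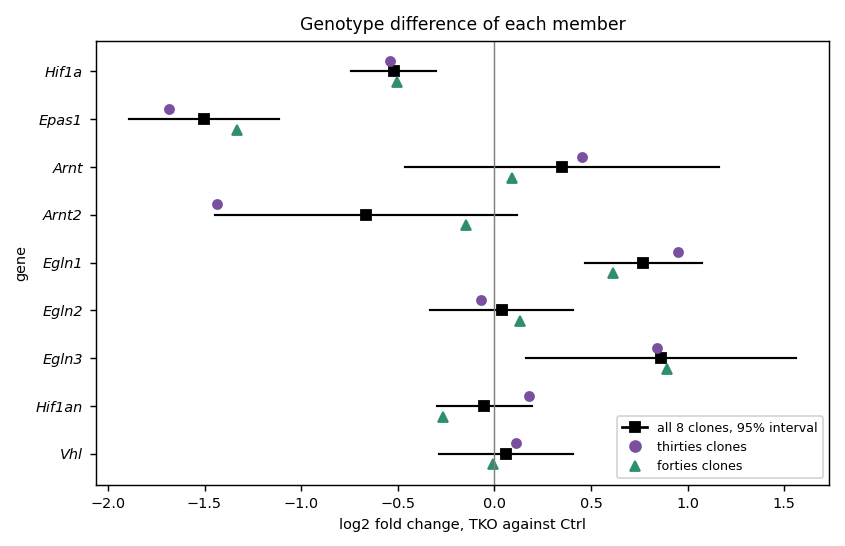
Log2 fold change of TKO against Ctrl (x axis) for each tested member (y axis), with black squares and lines for all 8 clones and the 95% interval, circles for the thirties and triangles for the forties clones. Epas1 lies at -1.50, Hif1a at -0.52, Egln1 at 0.77 and Egln3 at 0.86, and the series are farthest apart for Arnt2 (-1.44 and -0.15). The intervals describe spread and are not read as tests, because the genotype difference was known when the set was proposed.

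The clone series also differed from each other, whatever the genotype, in 19.4% of all records. Among the members only Arnt passed that test (edgeR), with a log2 difference of -0.95 (SE 0.20, adjusted p = 0.0114) for forties against thirties. Its counts were lower in each forties clone than in each thirties clone, within both genotypes. Vhl had -0.31 (SE 0.11, adjusted p = 0.0801) and Arnt2 0.67 (SE 0.28, adjusted p = 0.116). Epas1 had 0.11 (SE 0.16, adjusted p = 0.679) and Hif1a 0.15 (SE 0.079, adjusted p = 0.194).

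Over the 8 clones some members followed each other, as a description of points that share genotype and series. Pearson's r of log2 normalized counts was 0.87 for Hif1a with Epas1, -0.87 for Epas1 with Egln1, -0.88 for Hif1a with Egln1 and -0.87 for Hif1a with Egln3. Arnt and Vhl had r = 0.88, and both had lower counts in the forties clones of each genotype. Among 13007 records averaging 20 or more normalized counts, the 5 most like Epas1 were Phf12 (r = 0.980), Atp6v1h (0.976), Gm12191 (0.973), Zfp987 (0.972) and Pfas (0.966). The 5 most like Hif1a were Tuba1c (0.987), Zmym1 (0.984), Zfr (0.983), Trpm7 (0.980) and Zmpste24 (0.979). In all 10 the TKO clones lay under the Ctrl clones. This follows largely from how they were picked, by likeness to 2 genes that split by genotype in that direction. Gm12191 is also in the study's own gene table.

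No tested neighbour of Epas1 passed in TKO against Ctrl. Of all records only 0.240% passed there, and 5.70% with the series term, so a count of 0 among 8 genes says little. Of the genes within 500 kb in mm9, 8 were tested, and 0 passed with edgeR, with or without the series term (0 at an unadjusted p under 0.05, 0 with DESeq2 and 0 with limma-voom). Ranges separate between the genotypes were found in 0 of the 8, and in 8.33% of all records. Rhoq, 130 kb away, had a log2 fold change of -0.28 (SE 0.20), and Prkce, 96.0 kb away, had 0.35 (SE 0.28). Socs5, 274 kb away, had -0.58 (SE 0.48), and with the series term it was just over the threshold (edgeR, adjusted p = 0.0525). These neighbours were named after their values were seen. No member shares a chromosome with Miwi, Mili or Miwi2, which lie on chromosomes 5, 14 and 9.

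The regulators of HIF protein and activity came next. All 24 were tested, among them subunits of the Vhl ubiquitin ligase (Elob, Eloc, Cul2, Rbx1), chaperones and coactivators, and 0 passed an adjusted p of 0.05 (edgeR), with 4 at an unadjusted p under 0.05, 2 called in DESeq2 and 0 in limma-voom. The median log2 fold change was 0.12, with 16 of 24 above 0, where the median of all records was -0.005. The chaperones Hsp90ab1 and Hsp90aa1, the most expressed, had 0.12 (adjusted p = 0.490) and 0.16 (adjusted p = 0.529). With the series term, Cited4, which competes for coactivator binding, was higher (0.95, adjusted p = 0.0341) and the coactivator Crebbp was lower (-0.43, adjusted p = 0.0284). Both were named after their values were seen.

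The relatives that share the bHLH-PAS fold, and the coactivators listed with them, were listed beside the HIF subunits. Of 14 tested, 0 passed (edgeR), 2 had an unadjusted p under 0.05, and DESeq2 and limma-voom called 0, and the median log2 fold change was 0.03. Ncoa3 and Ncoa1, the most expressed, had 0.17 (adjusted p = 0.603) and -0.09 (adjusted p = 0.824). With the series term Npas4, an activity-induced neuronal factor that is in the study's own gene table, was lower (-2.19, adjusted p = 0.0153) at 7.2 to 20.4 normalized counts in Ctrl and 2.26 to 4.01 in TKO clones.

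Known HIF target genes were mostly higher in 3 of the 4 TKO clones. Of the targets tested, 29 in TKO clone 35, 30 in clone 37 and 32 in clone 47 were above their Ctrl mean, but 20 in clone 48. The share of all records above their Ctrl mean in each clone is not given here, so these counts have no background beside them. Clone 48 had 297 normalized counts of Epas1, close to 314 and 320 in clones 35 and 37. It had the highest Hif1a count of the TKO clones (4719). Of 42 listed genes 37 were tested, 30 had a log2 fold change above 0, and the median was 0.49, where 49.5% of all records were above 0. The genotypes had separate ranges in 7 of 37 (18.9%), 6 higher and 1 lower, against 8.33% of all records. The other 5 (Vegfa, Pfkfb3, Kdm3a, Vldlr and Ak4) have 2 to 8 records each and had too few reads. Bnip3, a mitophagy receptor, was the 1 gene that passed (edgeR). It had 2365, 1822, 1868 and 1580 normalized counts in Ctrl clones 33, 34, 41 and 43 and 6542, 6872, 5646 and 3549 in TKO clones 35, 37, 47 and 48. These did not overlap, and Bnip3 rose with a log2 fold change of 1.57 (SE 0.21, adjusted p = 0.0155). That call was lost when any of Ctrl 34, 41 or 43 or TKO 35 or 47 was left out, with adjusted p from 5.13e-09 to 0.0828 over 14 alternatives, while the log2 fold change stayed between 1.46 and 1.74 with a clone left out.

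With the series term 7 targets rose and 1 fell, 8 of 37 where 5.70% of all records passed. Those that rose were Bnip3, Ldha, Ndrg1, Ndufa4l2, Higd1a, P4ha1 and Fam162a, and the matrix enzyme Lox fell. These were named after their values were seen, and Bnip3, Ndrg1 and Ndufa4l2 are in the study's own table from these libraries, so their direction is not independent evidence. Ndrg1 had 446 to 767 normalized counts in Ctrl and 893 to 2638 in TKO clones, and Ldha, which makes lactate, had 837 to 1303 and 1460 to 1989, a level that is uncertain because Ldha has 2 records. In all 3 genes Bnip3, Ndrg1 and Egln3, TKO clone 48 was the lowest TKO clone. The median of the targets was 0.66 between the thirties clones and 0.25 between the forties clones, a difference that was not tested.

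Genes linked to HIF-2 in other tissues had mostly negative differences. Of 18 listed genes 17 were tested (Epo had too few reads), 13 had a log2 fold change below 0, and the median was -0.34, with -0.33 between the thirties clones and -0.05 between the forties clones. Of all records 49.5% were above 0 and 0.240% passed. The genotypes had separate ranges in 2 of 17 (11.8%), near the 8.33% of all records. The 2 that passed both fell, and without Ctrl 33, 41 or 43 or TKO 35, 37 or 47 the count was 0. Ptgs2, a prostaglandin synthase, had 1833 to 2752 normalized counts in Ctrl and 600 to 1183 in TKO clones (log2 fold change -1.49, SE 0.22, adjusted p = 0.0327), and its call was lost when any of Ctrl 33, 41 or 43 or TKO 35, 37 or 47 was left out (up to 0.126), at log2 fold changes of -1.70 to -1.35. Pou5f1, the pluripotency factor Oct4, had 24310 to 28971 and 15866 to 19185 (-0.61, SE 0.095, adjusted p = 0.0380), a call lost without any 1 clone other than TKO 48 (up to 0.168), at -0.67 to -0.56. The cells also carry a retroviral Oct4, whose reads the table does not keep apart. Ptgs2 is in the study's table too. The iron genes Slc40a1, Slc11a2 and Cybrd1 had -0.34, -0.13 and 0.87 without passing, and were named after their values were seen.

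**Figure D4:**
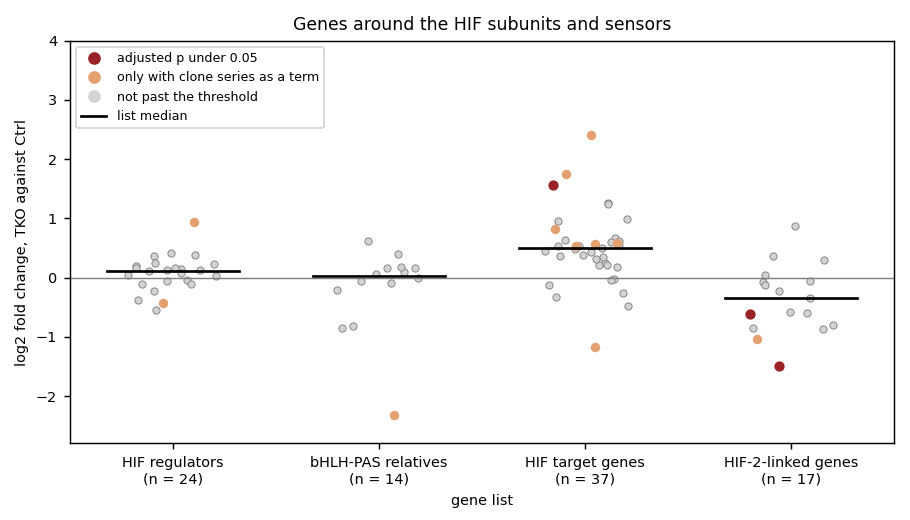
Log2 fold change of TKO against Ctrl (y axis) for each tested gene of the 4 lists around the HIF genes (x axis), dark red where the adjusted p is under 0.05, orange where this holds only with clone series as a term, with black lines for list medians. The medians lie at 0.12, 0.03, 0.49 and -0.34 from left to right.

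Markers of other cell types were summed in counts per kb. The 24 fibroblast markers summed to 65612, 51129, 38494 and 41823 in Ctrl clones 33, 34, 41 and 43 and to 30205, 29572, 47602 and 50257 in TKO clones 35, 37, 47 and 48. They were lower in TKO in the thirties clones and higher in the forties clones. Of the 24, 0 passed over all clones (edgeR; 2 at an unadjusted p under 0.05, 2 called in DESeq2, 0 in limma-voom), 16 fell within the thirties and 0 passed within the forties, where 11.9% and 1.98% of all records passed. In the interaction 11 of 24 passed, against 1.30% of all records. The 17 endothelial markers summed to 824 to 1006 in Ctrl and 501 to 565 in TKO clones without overlap, and 2 of them, Mmrn2 (-1.81) and Thbd (-1.40), fell among the 16 tested. Both are in the study's own table, and they had the highest Ctrl mean counts of the list (1059 and 1202), so they weigh most in the sum. Without them the summed level overlaps between the genotypes. The median log2 fold change of the 16 was 0.13, with 10 above 0 and 6 below. With the series term 3 fell, with Flt1 (-0.997, adjusted p = 0.0333) as the third. Of the defining endothelial markers, Pecam1, Cdh5, Tek and Tie1 had log2 fold changes of 0.21, -1.24, 0.05 and 0.35 without passing. The 13 endoderm markers summed to 1747 to 2660 and 1445 to 2462, and of the 11 tested 0 passed (edgeR; 1 at an unadjusted p under 0.05, 0 called in DESeq2 and in limma-voom). No marker list had a gene at 0 in all libraries, and the part of other cell types in the Epas1 level was not tested.

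**Figure D5:**
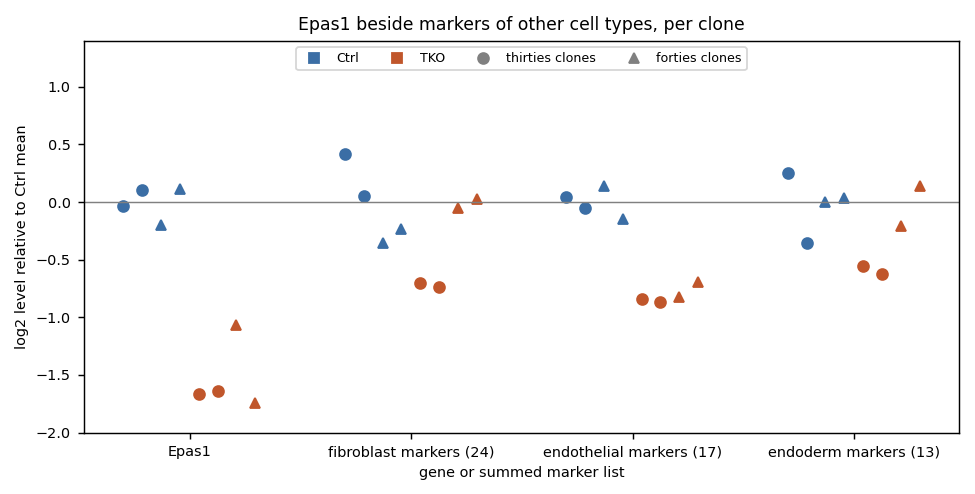
Log2 level relative to the Ctrl mean (y axis) of Epas1 and of summed marker lists (x axis) in each Ctrl (blue) and TKO (orange) clone, with circles for the thirties and triangles for the forties. Epas1 and the sum of 17 endothelial markers are separate between genotypes, and the sums of 24 fibroblast and 13 endoderm markers overlap. The endothelial sum includes Mmrn2 and Thbd, which are in the study's own gene table, and without them it overlaps between genotypes. Of the 16 endothelial markers tested singly, 10 had a log2 fold change above 0 and 6 below.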

How the data were processed

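Total RNA of 8 iPSC clones was prepared with the Illumina TruSeq RNA kit. The authors mapped reads with BWA (0.7.5a in the submitters' processing notes) to mm9 transcript sequences and deposited whole-number read counts per RefSeq record, neither scaled nor filtered. The rules for multiply matching reads and for strand are not given in the sources used here. Symbols came from a RefSeq table (GRCm38.p6, names only) and matched 26321 of 27052 records, and coordinates came from an mm9 annotation.

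Records reaching 5 reads in 4 or more libraries were tested in R 4.3.3 with edgeR 4.0.16 (quasi-likelihood test, median-ratio size factors, Benjamini-Hochberg adjustment over 16235 records). Fits were TKO against Ctrl, the same with clone series as a term, and 4 groups of genotype and series. DESeq2 1.42.0 and limma 3.58.1 (voom) were alternatives, with TMM scaling, counts summed per symbol, a minimum of 10 reads in each library, no filter and leaving out each clone. Standard errors come from the log2 fold change and F. The scripts were tested on simulated counts.

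The members and lists were chosen with earlier results of these data known. Named genes are all members, the called genes of each list (up to 6, or else the 2 most expressed) and the 5 records most correlated with Epas1 and with Hif1a. Beside these, another called gene of the lists is not reported here and is left out of the counts of its list.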

Additional observations from a re-analysis of the deposited data

Results flagged for a closer look

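Of 32 groups of 4 clones, 2 had a clone far from the other 3 by Dixon's criterion, and chance gives about 1 in 20. Epas1 had 476 normalized counts in TKO clone 47, the highest, against 297 to 320 in the other TKO clones. Egln3 had 590 in TKO clone 48, the lowest, against 1334 to 1448.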

How the results depend on the processing

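No paired analysis was possible because no clone number occurs in both genotypes. The log2 fold change of Epas1 kept its direction in every alternative, from -1.68 to -1.43 with a clone left out, and its share of the alpha level then ran from 12.8 to 13.7% in Ctrl and from 6.32 to 7.77% in TKO. Without division by record length that share was 14.5% in Ctrl.

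Counts of genes past the threshold moved more. For the members in TKO against Ctrl, 1 passed (0.240% of all records), and 3 with the series term (5.70% of all records). DESeq2 called 3, and 1 to 3 passed when a clone was left out (3 without TKO 48). In contrasts added after the data were seen, 4 passed within the thirties and 2 within the forties (11.9% and 1.98% of all records). Shares of all records with DESeq2 or with a clone left out are not given here, so nothing is read from those counts. For the interaction 0 passed, 1 with DESeq2, and 0 to 1 with a clone left out (1 without TKO 47). For the regulators, 2 passed with DESeq2, 2 with the series term and 2 within the forties. For the bHLH-PAS list, 1 passed with the series term, 1 within each series and 0 to 1 with a clone left out (1 without Ctrl 34). For the targets, 7 passed with DESeq2, 8 with the series term, 2 without a filter, 17 within the thirties and 2 within the forties, and 0 to 6 with a clone left out (6 without TKO 48, 0 without Ctrl 34, 41 or 43 or TKO 35 or 47). For the HIF-2-linked genes, 2 passed, 5 within the thirties, 1 within the forties and 0 to 2 with a clone left out (1 without Ctrl 34, 0 without Ctrl 33, 41 or 43 or TKO 35, 37 or 47). Ncoa1, at -0.09, ran from -0.17 to 0.10 with a clone left out and turned positive without Ctrl 34. The causes were not tested.

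Library totals differ several-fold, and each arm of the interaction has 2 clones, which limits that test.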
